A study of Homo sapiens with 18 samples.

Results

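The genes described here are 8 members of the NRF2 pathway, chosen by name and found in the deposited gene table by symbol, 8 of its 17017 genes. They are the transcription factor itself (NFE2L2, which encodes NRF2), its inhibitor KEAP1, and 6 genes that NRF2 switches on (HMOX1, NQO1, GCLM, GCLC, SRXN1 and OSGIN1). All 8 passed the filter on low counts in RNA, in footprints and in the joint fit of both. The rule that names them uses no measured value, but they were picked with earlier results of these data known.

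NRF2 is the main transcription factor of the response to oxidants and electrophiles. KEAP1, an adaptor of a cullin ubiquitin ligase, binds NRF2 in unstressed cells and has it degraded, so the factor is controlled to a large part at the level of the protein, which was not measured here. When KEAP1 is modified by electrophiles, NRF2 accumulates, pairs with a small MAF protein and binds antioxidant response elements near genes of glutathione synthesis, quinone and heme breakdown and thioredoxin repair.

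The cells were MDA-MB-231, an established human line of triple-negative breast carcinoma, in which fibrillarin (FBL), the methyltransferase that modifies ribosomal RNA, was knocked down. Group SC is read as the scramble hairpin control, and groups SH2 and SH3 as 1 hairpin against FBL each. The labels do not say which of the 2 hairpins in the protocol is SH2. All 3 groups carried a lentiviral pLKO.1 vector, were selected with puromycin at 1 µg/ml for 96 h, and were treated with cycloheximide at 100 µg/ml for 5 min before lysis. No untransduced cells and no treatment with an oxidant or an NRF2 activator were among the groups used here. Each group had 3 libraries of cytoplasmic RNA (IN) and 3 of ribosome-protected footprints (RPF), 18 in all. Nothing in the labels says that replicates were separate cultures, so p-values measure the spread between these libraries, which may be technical.

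Levels are given as CPM, counts scaled by edgeR to the library total with TMM factors among libraries of the same kind. Changes are log2 fold changes from edgeR's quasi-likelihood test, with the standard error (SE). A gene is called when its p-value, adjusted by the Benjamini-Hochberg method over all genes tested, is under 0.05. Both hairpin groups share the 3 SC libraries as control, which makes their changes depend on each other. Where groups are said not to overlap, the share of all genes without overlap is not given. Lack of overlap alone therefore does not set a gene apart. Translational efficiency is the footprint level relative to the RNA level, tested as the difference between the footprint change and the RNA change. Levels were not compared between genes, because gene lengths were not used here. Only the ratio of footprints to RNA in SC was ranked between genes.

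IN libraries held 23469830 to 27629488 counts and RPF libraries 1662705 to 6098648, so footprint values are less precise. FBL was reduced to 1.46% of the SC mean in SH2 RNA and 0.898% in SH3 RNA, and SH2 replicate 3 had the highest remaining level, 11.2 CPM against 1.26 and 4.52 CPM in the other SH2 replicates. VIM, a mesenchymal marker of this line, stood at 4081 to 7223 CPM in the 9 IN libraries, while ESR1 and PGR, which triple-negative tumours lack, had 0 to 1 and 0 to 2 counts. ERBB2, whose gene is not amplified in such tumours, was detected at 79.2 to 104 CPM. Replicate numbers 1 and 2 of IN and RPF libraries did not match in SC and SH2. Across genes, the deviations of SC IN replicate 1 from its group mean correlated at -0.49 with those of SC RPF replicate 1 and at 0.57 with those of RPF replicate 2. The same values in SH2 were -0.30 and 0.56. Deviations of IN replicate 2 and RPF replicate 1 correlated at 0.46 in SC and 0.49 in SH2. Those of IN replicate 3 and RPF replicate 3 correlated at 0.26 and 0.50. Ratios of footprints to RNA are therefore given between group means, and the main test of translational efficiency did not pair libraries.

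**Figure D1:**
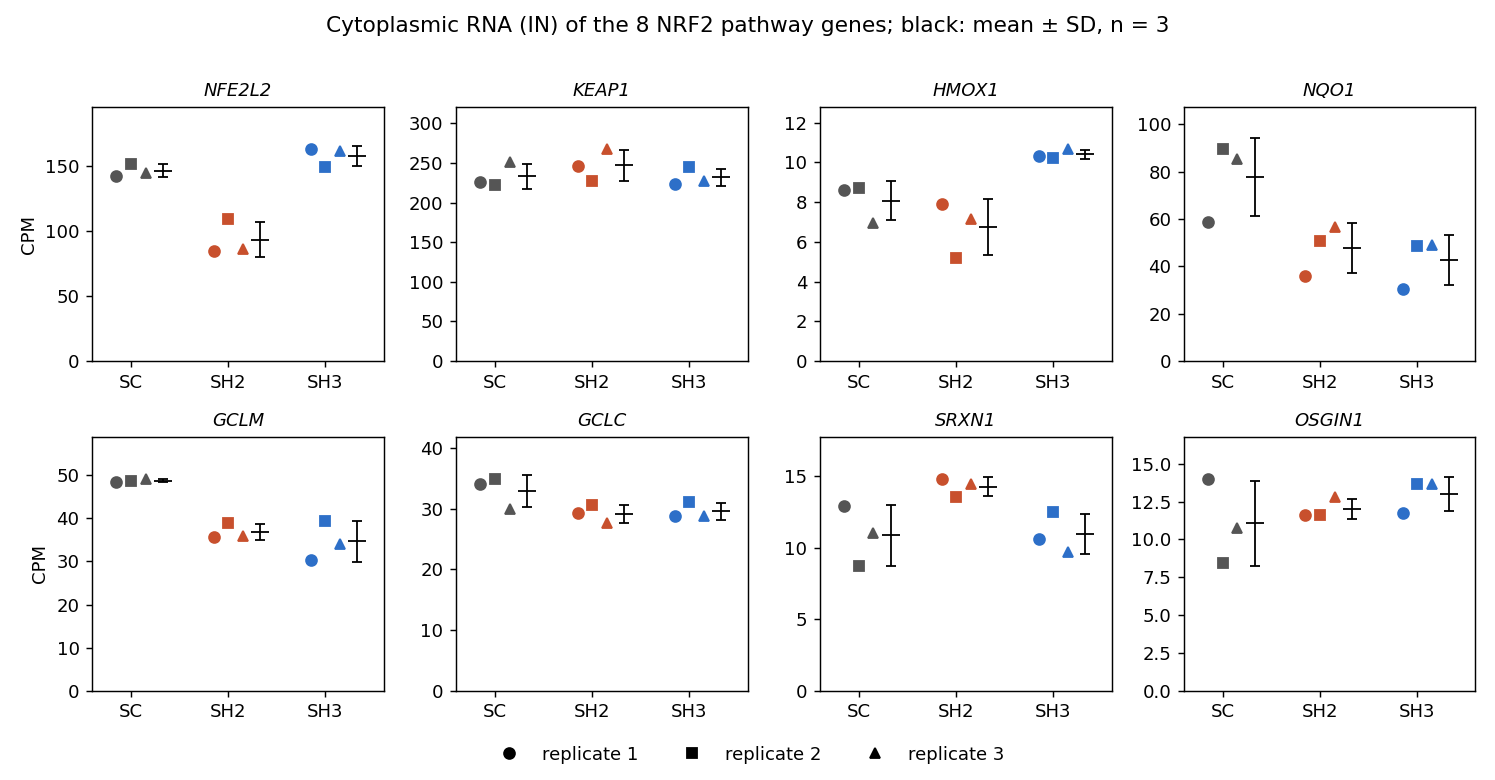
RNA level of each gene in the 9 IN libraries, in CPM on linear axes that start at 0, with points for libraries and black marks for mean ± SD (n = 3). NFE2L2 is lower in SH2 than in the other groups, while NQO1 and GCLM are lower than SC in both SH2 and SH3.

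The mRNA of the transcription factor was lower in SH2, and its level differed between the hairpins. NFE2L2 RNA stood at 142, 152 and 144 CPM in the SC replicates 1, 2 and 3, at 84.8, 109 and 86.1 CPM in SH2, and at 162, 149 and 161 CPM in SH3. All 3 SH2 libraries lay below all libraries of the other groups, and SH3 overlapped SC. NFE2L2 RNA fell by 0.65 on the log2 scale in SH2 (SE 0.10, edgeR adjusted p 0.000111), which left 63.9% of the SC mean. In SH3 its change was 0.11 with a 95% interval from -0.11 to 0.33 (edgeR adjusted p 0.391). SH2 was lower than SH3 by a log2 difference of -0.76 (SE 0.10, edgeR adjusted p 8.55e-05), so the hairpins differed in NFE2L2 RNA.

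Footprints on the NFE2L2 mRNA were also lowest in SH2. They stood at 90.8, 104 and 84.9 CPM in SC (559, 247 and 478 counts), at 73.3, 56.6 and 59.2 CPM in SH2 (198, 243 and 183 counts), and at 93.7, 82.9 and 97.1 CPM in SH3 (160, 242 and 277 counts). Again the SH2 libraries lay below all the others. NFE2L2 footprints fell by 0.56 on the log2 scale in SH2 (SE 0.15, edgeR adjusted p 0.00606). In SH3 the change was -0.03, with a 95% interval from -0.34 to 0.29. The difference between SH2 and SH3 in footprints was -0.54 (SE 0.15, edgeR adjusted p 0.0175). That difference was no longer called without SH2 replicate 2 (-0.46, adjusted p 0.0847), without SH2 replicate 3 (-0.49, adjusted p 0.0693) or without SH3 replicate 3 (-0.49, adjusted p 0.0698).

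The mRNA of the inhibitor was not called in any comparison. KEAP1 RNA stood at 226, 222 and 251 CPM in SC, at 246, 228 and 267 CPM in SH2 and at 224, 245 and 228 CPM in SH3. The groups overlapped. Its log2 change was 0.08 in SH2 (95% interval -0.12 to 0.28) and -0.01 in SH3 (95% interval -0.21 to 0.19). KEAP1 footprints stood at 127, 139 and 143 CPM in SC, at 148, 158 and 172 CPM in SH2 and at 110, 144 and 161 CPM in SH3. The SH2 libraries lay just above SC without overlap, but the change of 0.23 (SE 0.15) missed the threshold (edgeR adjusted p 0.218). SH3 spanned the SC range, with a change of 0.03 and a 95% interval from -0.28 to 0.35.

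Among the targets, NQO1 and GCLM were called lower in RNA with both hairpins. NQO1 is a quinone reductase and among the most used readouts of NRF2 activity. NQO1 RNA stood at 58.9, 89.5 and 85.3 CPM in SC, at 36.1, 50.6 and 56.8 CPM in SH2, and at 30.6, 48.7 and 49.1 CPM in SH3. Replicate 1 was the lowest of its group each time, and even so SC replicate 1 lay above every SH2 and SH3 library. NQO1 RNA fell by 0.70 on the log2 scale in SH2 (SE 0.20, edgeR adjusted p 0.00789). In SH3 it fell by 0.86 (SE 0.20, edgeR adjusted p 0.00270). The difference between the hairpins was 0.16, with a 95% interval from -0.27 to 0.60. In the 15 alternative analyses the SH2 change ranged from -0.89 to -0.53 and the SH3 change from -1.05 to -0.71, and both remained called in each.

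NQO1 footprints stood at 181, 106 and 166 CPM in SC (1115, 251 and 937 counts), at 116, 60.8 and 111 CPM in SH2 (312, 261 and 343 counts), and at 42.1, 85.9 and 74.3 CPM in SH3 (72, 251 and 212 counts). SH3 lay below SC without overlap, while SH2 replicates 1 and 3 lay above SC replicate 2. The lowest footprint libraries were replicate 2 in SC and SH2 and replicate 1 in SH3, and the lowest RNA libraries replicate 1 in all 3 groups. Across genes, deviations of RNA replicate 1 correlated with those of footprint replicate 2 in SC (0.57) and SH2 (0.56). In SH3 they correlated with those of footprint replicate 1 (0.42). NQO1 footprints fell by 1.15 on the log2 scale in SH3 (SE 0.27, edgeR adjusted p 0.00331). In SH2 they fell by 0.68 (SE 0.26, edgeR adjusted p 0.0431), a call that was lost in 7 of 15 alternatives. Without SC replicate 1 the SH2 change was -0.52 (adjusted p 0.117), without SC replicate 3 -0.60 (0.129), without SH2 replicate 2 -0.42 (0.206) and without SH2 replicate 3 -0.79 (0.0525). It was -0.67 without SH3 replicate 2 (0.0508), without SH3 replicate 3 (0.0585) and with plain library totals (0.0527).

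GCLM encodes the modifier subunit of glutamate-cysteine ligase, the enzyme of the first step of glutathione synthesis. GCLM RNA stood at 48.4, 48.8 and 49.2 CPM in SC, at 35.7, 38.9 and 35.8 CPM in SH2, and at 30.2, 39.5 and 34.2 CPM in SH3. SC was the tightest group, and all 6 hairpin libraries lay below it. GCLM RNA fell by 0.41 on the log2 scale in SH2 (SE 0.11, edgeR adjusted p 0.00441). It fell by 0.49 in SH3 (SE 0.11, edgeR adjusted p 0.00148), and both calls remained in all 15 alternatives. GCLM footprints stood at 53.1, 55.6 and 38.2 CPM in SC, at 36.3, 31.9 and 38.2 CPM in SH2 and at 32.2, 34.6 and 38.2 CPM in SH3. SC replicate 3 lay at the level of the hairpin groups, which therefore met the SC range at its lower end. GCLM footprints fell by 0.46 in SH2 (SE 0.18, edgeR adjusted p 0.0437). The change in SH3 was -0.47 (SE 0.18, edgeR adjusted p 0.0528). The SH2 call was lost in 11 of 15 alternatives. Without SC replicates 1 or 2 the SH2 change was -0.37 (adjusted p 0.133 and 0.111), without SH2 replicates 1, 2 or 3 it was -0.47, -0.37 and -0.51 (0.0824, 0.163 and 0.0652), and without SH3 replicates 1, 2 or 3 it was -0.45 (0.0530, 0.0625 and 0.0569). With DESeq2, plain library totals or SC and SH2 alone it was -0.45 (0.0633, 0.0517 and 0.0740). Without SC replicate 3 the SH3 change was called, at -0.61 (adjusted p 0.0226).

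The promoters of NQO1 and GCLM are shown because these genes were the members called lower in RNA with both hairpins. The sequences are the 250 bases before the gene's start on the gene's own strand, from RefSeq (GRCh38.p14), 5′ to 3′. Capitals mark a match to the core of the antioxidant response element, TGACNNNGC, searched on both strands.
GCLM, chr1:93909431-93909680, minus strand: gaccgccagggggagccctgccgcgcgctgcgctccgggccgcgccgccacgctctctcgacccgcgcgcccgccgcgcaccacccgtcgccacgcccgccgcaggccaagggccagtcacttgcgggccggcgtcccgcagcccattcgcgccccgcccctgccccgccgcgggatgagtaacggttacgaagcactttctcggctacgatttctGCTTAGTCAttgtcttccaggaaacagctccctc
NQO1, chr16:69726561-69726810, minus strand: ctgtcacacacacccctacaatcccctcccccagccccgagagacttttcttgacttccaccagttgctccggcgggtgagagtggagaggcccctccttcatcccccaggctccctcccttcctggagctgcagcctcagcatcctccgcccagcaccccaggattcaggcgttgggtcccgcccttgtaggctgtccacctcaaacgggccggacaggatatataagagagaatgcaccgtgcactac
The GCLM window held 1 match, on the opposite strand, 34 to 26 bases before the start. The core can hold the AP-1 site TGACTCA when its N bases are TCA. In the GCLM match they are TAA, so this match does not hold that site. The NQO1 window held none, which says only that these letters are not within these 250 bases. Of 35116 promoter windows of the same length in the table, 10.9% held a match.

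Of the members, 7 had an entry in the promoter table (HMOX1 did not), and 2 of these had a match, GCLM and KEAP1. The KEAP1 matches lay before the second of its listed starts. They are shown with GCLM in windows of 30 bases, because the match GCTTAGTCA is the same in both genes.
GCLM, chr1:93909445-93909474, minus strand: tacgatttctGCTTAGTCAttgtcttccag
KEAP1, chr19:10502783-10502812, minus strand: gcccggctctGCTTAGTCAtggtgacctgc
KEAP1, chr19:10502806-10502835, minus strand: acttttattgTGACACGGCgggcgcccggc
GCLM, with this match, was called lower in RNA with both hairpins, while KEAP1, with the same letters, was not called. OSGIN1 held no core match, but held the AP-1 site TGACTCA 97 to 91 bases before its start, a site found in 4.2% of all windows. Among other genes of the pathway, 14 of the 45 in the promoter table had a core match. These are counts of genes, over 9 listed starts for the members and 63 for the other genes. The share of 10.9% is per window, so the counts of genes cannot be set against it.

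**Figure D2:**
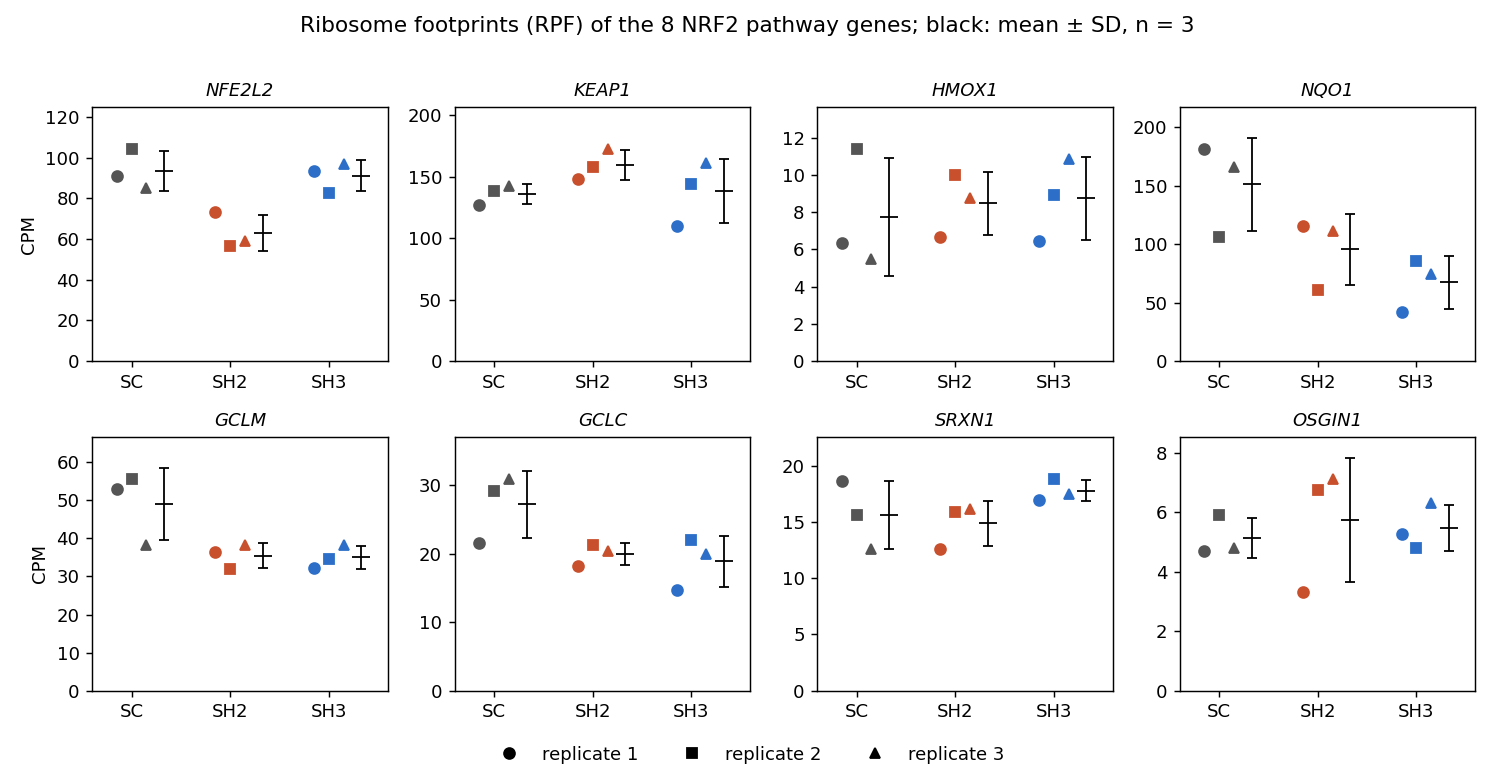
Footprint level of each gene in the 9 RPF libraries, in CPM on linear axes that start at 0, with points for libraries and black marks for mean ± SD (n = 3). SH2 is the lowest group for NFE2L2 and SH3 for NQO1, and SC replicate 3 of GCLM, at 38.2 CPM, lies among the hairpin libraries.

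GCLC, the catalytic subunit of the same ligase, was not called in RNA, and its call in footprints depended on the fit. GCLC RNA stood at 34.0, 34.9 and 30.0 CPM in SC, at 29.4, 30.6 and 27.6 CPM in SH2, and at 28.8, 31.2 and 28.9 CPM in SH3. SC replicate 3 lay within the range of both hairpin groups, and the other SC libraries lay above it. The RNA change was -0.18 in SH2 (95% interval -0.39 to 0.04) and -0.16 in SH3 (95% interval -0.37 to 0.06). GCLC footprints stood at 21.6, 29.1 and 30.9 CPM in SC, at 18.1, 21.2 and 20.4 CPM in SH2 and at 14.6, 21.9 and 20.0 CPM in SH3. The SH2 libraries lay just below SC without overlap, and SH3 overlapped SC. The footprint change was -0.43 in SH2 (edgeR adjusted p 0.0909), and -0.49 in SH3 (edgeR adjusted p 0.0746). SC replicate 1 was the lowest SC library, and without it both were called, at -0.58 (adjusted p 0.0277) and -0.63 (adjusted p 0.0249). Both were also called with the replicate number as a block, at -0.45 in SH2 (adjusted p 0.0386) and -0.52 in SH3 (adjusted p 0.0275).

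HMOX1 encodes the inducible heme oxygenase, which NRF2 activates and BACH1 represses. HMOX1 RNA stood at 8.61, 8.69 and 6.92 CPM in SC, at 7.92, 5.19 and 7.15 CPM in SH2, and at 10.3, 10.2 and 10.7 CPM in SH3. SH3 lay above both other groups without overlap, and SH2 overlapped SC. Neither hairpin was called against SC in RNA, with changes of -0.26 in SH2 (95% interval -0.61 to 0.10) and 0.37 in SH3 (95% interval 0.02 to 0.72, edgeR adjusted p 0.0735). Scaled by plain totals, without TMM factors, the SH3 change was called, at 0.45 (adjusted p 0.0325). SH2 was lower than SH3 by a log2 difference of -0.62 (SE 0.16, edgeR adjusted p 0.00839), a call that remained in all 15 alternatives. HMOX1 footprints rested on 11 to 43 counts in a library, with changes of 0.25 in SH2 (95% interval -0.40 to 0.90) and 0.31 in SH3 (95% interval -0.37 to 0.98). The footprint difference between SH2 and SH3 was -0.06 with a 95% interval from -0.74 to 0.62, which includes the difference seen in RNA.

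SRXN1 encodes sulfiredoxin, which restores overoxidised peroxiredoxins. SRXN1 RNA stood at 12.9, 8.69 and 11.0 CPM in SC, at 14.8, 13.6 and 14.5 CPM in SH2, and at 10.6, 12.5 and 9.73 CPM in SH3. SH2 lay above both other groups. SRXN1 RNA rose by 0.39 on the log2 scale in SH2 (SE 0.15, edgeR adjusted p 0.0367) and was the member called higher. The call was lost in 8 of 15 alternatives: without SC replicate 2 (0.25, adjusted p 0.167) or 3 (0.40, 0.0797), without SH2 replicate 1 (0.37, 0.0858), 2 (0.42, 0.0508) or 3 (0.36, 0.0997), without SH3 replicate 1 (0.38, 0.0542) or 3 (0.38, 0.0514), and in a fit of SC and SH2 alone (0.38, 0.0570). In SH3 the change was 0.01 (95% interval -0.32 to 0.34), and the difference between SH2 and SH3 was 0.38 (edgeR adjusted p 0.0589). SRXN1 footprints stood at 18.7, 15.6 and 12.6 CPM in SC, at 12.6, 15.9 and 16.2 CPM in SH2 and at 17.0, 18.8 and 17.5 CPM in SH3. Here the SH2 libraries did not stand above SC, and the footprint change was -0.06 in SH2 (95% interval -0.51 to 0.38) and 0.19 in SH3 (95% interval -0.26 to 0.64). Unlike in RNA, the SH2 libraries lay below all SH3 libraries, a difference that was not called (edgeR adjusted p 0.433).

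OSGIN1, an oxidant-induced growth inhibitor, was not called in any comparison. OSGIN1 RNA stood at 14.0, 8.45 and 10.7 CPM in SC, at 11.6, 11.6 and 12.8 CPM in SH2 and at 11.7, 13.7 and 13.6 CPM in SH3. SC spanned the range of both hairpin groups. Its RNA change was 0.12 in SH2 (95% interval -0.23 to 0.47) and 0.23 in SH3 (95% interval -0.12 to 0.58). SC replicate 1 was the highest library, and without it the SH3 change was 0.42 (adjusted p 0.0314). OSGIN1 footprints rested on 9 to 29 counts in a library, with changes of 0.23 in SH2 (95% interval -0.44 to 0.89) and 0.13 in SH3 (95% interval -0.58 to 0.83).

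**Figure D3:**
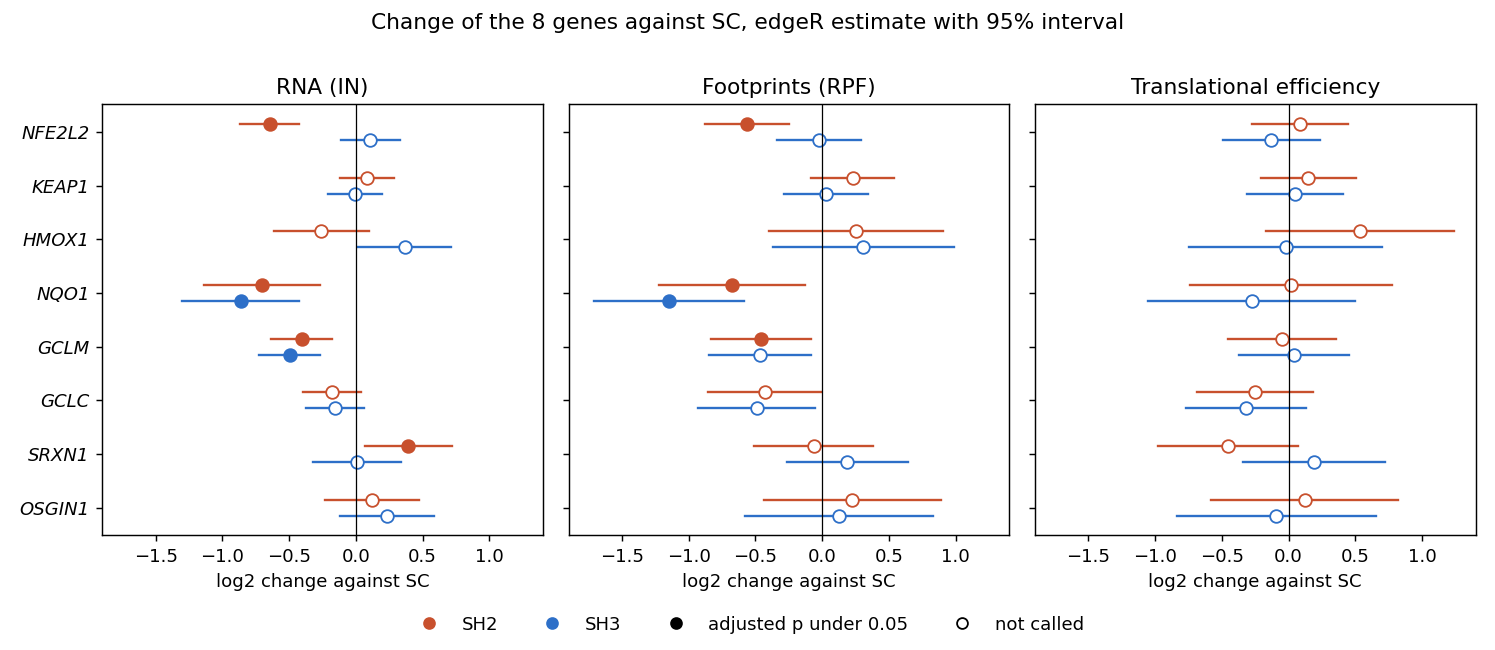
Log2 change of each gene against SC for RNA, footprints and translational efficiency, with the edgeR estimate and its 95% interval for SH2 and SH3. In RNA, NQO1 and GCLM were called lower with both hairpins, and in SH2 NFE2L2 was also called lower and SRXN1 higher. All intervals for translational efficiency include 0.

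Counted over the members, 4 of 8 were called in SH2 RNA (SRXN1 higher, NFE2L2, NQO1 and GCLM lower), where 61.4% of all 12710 genes tested were called. Of all genes, 31.1% were called higher and 30.4% lower there. In SH3 RNA 2 of 8 were called, both lower, against 53.0% of all genes (25.2% lower). In footprints 3 of 8 were called in SH2, all lower, against 44.2% of 10345 genes (23.2% lower), and 1 of 8 in SH3, also lower, against 35.9% (19.0% lower). Between SH2 and SH3, 2 of 8 were called in RNA, both lower in SH2, against 39.3% of all genes (20.4% lower). In footprints it was 1 of 8, lower in SH2, against 23.8% (11.6% lower). NQO1 and GCLM were called lower in RNA with both hairpins, as were 18.2% of all genes. The share of members called in either direction was below the background in each of the 6 comparisons of groups. The share called lower was above the background for lower calls in SH2 RNA and SH2 footprints, between the hairpins in both measures, and in both hairpins together in RNA, and below it in SH3 RNA and SH3 footprints. These shares rest on 1 to 3 genes each, so the counts do not set the members apart from other genes. The median log2 change of the 8 members in RNA was -0.22 in SH2 and 0.00079 in SH3, beside 0.012 and 0.034 over all genes. In footprints the member medians were -0.25 and 0.0025, beside -0.0042 and -0.014.

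No member was called for translational efficiency by edgeR in SH2 or SH3 against SC or between the hairpins (0 of 8 each), where 3.67%, 0.750% and 0.0160% of 12531 genes were called. DESeq2 also called 0 of 8 in each, and at an unadjusted p under 0.05 edgeR had 0, 0 and 1, where 17.8%, 12.7% and 11.8% of all genes were under it. That 1 was SRXN1, whose efficiency in SH2 differed from that in SH3 by -0.64 (95% interval -1.19 to -0.10, edgeR adjusted p 0.333). For SRXN1 the ratio of mean footprint CPM to mean RNA CPM was 1.44 in SC, 1.04 in SH2 and 1.62 in SH3. For NFE2L2 the ratios were 0.639, 0.676 and 0.579, and the change in efficiency was 0.09 in SH2 (95% interval -0.28 to 0.45). The lower NFE2L2 footprints in SH2 thus went with RNA that was lower by a similar amount. NQO1 had the highest ratio among the members, 1.94 in SC, above that of 91.8% of 10335 genes (median 0.888), with 2.00 in SH2 and 1.58 in SH3. The other members ranked from 19.6% (OSGIN1) to 78.9% (SRXN1). How reads were counted per gene is not given, so these ranks between genes are descriptive only. The NQO1 change in efficiency was 0.02 in SH2 (95% interval -0.74 to 0.78) and -0.28 in SH3 (95% interval -1.05 to 0.50). The other ratios in SC, SH2 and SH3 were 0.584, 0.645 and 0.597 for KEAP1, 1.00, 0.963 and 1.01 for GCLM, and 0.824, 0.682 and 0.636 for GCLC. HMOX1 ratios were 0.958, 1.25 and 0.840, and those of OSGIN1 0.464, 0.478 and 0.419.

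Other genes of the pathway were counted from lists of 59, of which 55 could be tested in RNA. The lists were chosen with earlier results of these data known, so the counts below are descriptive and not independent evidence. GPX2, UGT1A6 and TRIM16L had no entry under these symbols in the table used here, and AKR1B10 did not pass the filter. AKR1C2, ALDH3A1 and ABCC2 did not pass it in footprints, which left 52. In SH2 RNA 19 rose and 13 fell, where 31.1% and 30.4% of all genes did, and in SH3 RNA 16 rose and 20 fell, where 27.8% and 25.2% did. In footprints 12 of 52 rose and 13 fell in SH2 (21.0% and 23.2% of all genes), and 7 rose and 13 fell in SH3 (16.9% and 19.0%). Most of these shares lie near those of all genes, and the farthest above was the share that fell in SH3 RNA. The lists moved in different directions, with the highest median RNA change among the regulators and the lowest among the glutathione and thioredoxin genes.

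Of 18 regulators of NRF2 (ligase subunits, small MAF partners, related factors, coactivators), 12 rose in RNA and 0 fell with each hairpin, where 31.1% and 27.8% of all genes rose. Their median RNA change was 0.50 in SH2 and 0.49 in SH3. In footprints 6 rose and 0 fell in SH2, and 6 rose and 1 fell in SH3, where 21.0% and 16.9% of all genes rose. MAFK and MAFF, small MAF proteins that pair with NRF2, rose in RNA by 1.38 (SE 0.14) and 1.07 (SE 0.14) in SH2 and by 0.47 (SE 0.14) and 0.72 (SE 0.14) in SH3. The related factors rose too, NFE2L3 by 1.31 (SE 0.16) in SH2 and 0.74 (SE 0.16) in SH3, and NFE2L1 by 0.41 (SE 0.12) and 0.42 (SE 0.12). SYVN1, the ubiquitin ligase also known as HRD1, rose by 1.14 and 0.74, and SQSTM1, the autophagy adaptor p62 that binds KEAP1, by 0.94 and 0.58. The footprints of SQSTM1 were not called (0.29 in SH2, 0.43 in SH3). CREBBP, a histone acetyltransferase and coactivator, rose in RNA by 0.83 in SH2 and 0.85 in SH3, with footprint changes of -0.03 and 0.32, and its translational efficiency fell by 0.87 in SH2 (SE 0.23, edgeR adjusted p 0.0403). CUL3, the cullin of the KEAP1 ligase, was not called in RNA (-0.10 and 0.13), and its footprints rose by 0.37 in SH2 (SE 0.13). BACH1, the repressor of HMOX1, changed by 0.26 in SH2 and -0.27 in SH3, neither called, and differed between SH2 and SH3 by 0.53 (edgeR adjusted p 0.00793).

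Of 9 glutathione and thioredoxin genes tested, 0 rose and 6 fell in SH2 RNA, and 0 rose and 7 fell in SH3 RNA, where 30.4% and 25.2% of all genes fell. Their median RNA change was -0.76 in SH2 and -0.74 in SH3, and their median footprint change -0.58 and -1.03. The numbers of calls in footprints were the same as in RNA, 6 and 7 lower and 0 higher, where 23.2% and 19.0% of all genes fell. TXNRD1, cytosolic thioredoxin reductase, stood at 339, 312 and 320 CPM in SC RNA, at 84.4, 101 and 91.1 CPM in SH2, and at 259, 241 and 253 CPM in SH3. All 3 groups were apart, SH2 lowest. TXNRD1 RNA fell in SH2 (-1.81, SE 0.09) and in SH3 (-0.37, SE 0.09), with a difference of -1.45 between them (SE 0.09, edgeR adjusted p 1.41e-07). Its footprints fell by 1.45 in SH2, with a change of -0.14 in SH3 that was not called.

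SLC7A11, the cystine importer that supplies glutathione synthesis, had the opposite order of hairpins. SLC7A11 RNA stood at 36.3, 44.4 and 40.0 CPM in SC, at 25.0, 30.0 and 28.3 CPM in SH2, and at 15.6, 11.8 and 13.8 CPM in SH3. The groups did not overlap and SH3 was lowest. SLC7A11 RNA fell in SH2 (-0.54, SE 0.12) and in SH3 (-1.55, SE 0.13), and SH2 exceeded SH3 by 1.02 (SE 0.13, edgeR adjusted p 4.09e-05). SLC7A11 footprints changed by 0.01 in SH2 and fell by 1.84 in SH3. Its translational efficiency in SH2 was not called (0.54, SE 0.20, edgeR adjusted p 0.136).

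In the same list, MGST1, a microsomal glutathione transferase, fell in RNA in SH2 (-2.56, SE 0.15) and SH3 (-1.57, SE 0.14). The cytosolic glutathione transferases GSTP1 (-1.08 and -1.19) and GSTM3 (-1.005 and -0.86) fell in SH2 and SH3 RNA. TXN, thioredoxin, fell in RNA (-0.76 in SH2, -0.74 in SH3, SE 0.10 each) and in footprints (-1.19 and -1.41, SE 0.12 each). The translational efficiency of TXN fell by 0.66 in SH3 (SE 0.14, edgeR adjusted p 0.0334), with -0.43 in SH2 (edgeR adjusted p 0.0977). Of the 55 pathway genes tested for translational efficiency, CREBBP in SH2 and TXN in SH3 were called, 0 higher and 1 lower with each hairpin. Over all genes tested, 3.67% were called in SH2 and 0.750% in SH3. The SH2 count of pathway genes was 0 without SC replicate 3, SH2 replicates 2 or 3 or any of the SH3 replicates. It was also 0 with a block that paired RNA and footprint libraries by number. Numbers 1 and 2 did not match in SC and SH2. The count in SH3 was 3 without SC replicate 1 and 0 without any other replicate. Each replicate left out here was the RNA and the footprint library of that number, including the unmatched numbers 1 and 2.

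The remaining lists were mixed, and their RNA counts stand beside the shares of all genes given above (for SH2 31.1% that rose and 30.4% that fell, for SH3 27.8% and 25.2%). Of 7 heme and iron genes 0 rose and 3 fell in SH2 RNA, and 1 rose and 4 fell in SH3 RNA. FTH1 and FTL, the ferritin chains, fell in RNA, with log2 changes of -1.09 and -0.87 in SH2 and -0.49 and -0.39 in SH3. FTH1 footprints fell by 0.60 in SH2 (SE 0.19, edgeR adjusted p 0.0158), and FTL footprints were not called there (-0.07). In SH3 footprints neither was called, with changes of 0.40 for FTH1 and 0.39 for FTL. FTH1 has many processed pseudogenes, so its counts are uncertain. HMOX2, the constitutive heme oxygenase, was not called in RNA (-0.29 and -0.10), and its footprints fell by 0.69 in SH2 (SE 0.15).

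Of 15 detoxification and export genes tested, 6 rose and 4 fell in SH2 RNA, and 2 rose and 7 fell in SH3 RNA. CBR3, a carbonyl reductase (-1.80 in SH2, -1.92 in SH3), UGDH, which makes UDP-glucuronate (-1.06 and -0.80), and AKR1C2, an aldo-keto reductase (-0.82 and -1.48), fell in RNA with both hairpins. AKR1C2 is close in sequence to its paralogs, so its counts are uncertain. ABCC3, an export pump of conjugates, rose by 1.78 in SH2 and 1.44 in SH3. Of the 55 genes, 12 rose and 12 fell in RNA with both hairpins, beside 19.6% and 18.2% of all genes, and PIR, the iron-binding protein pirin, rose in SH2 (0.60) and fell in SH3 (-0.83).

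**Figure D4:**
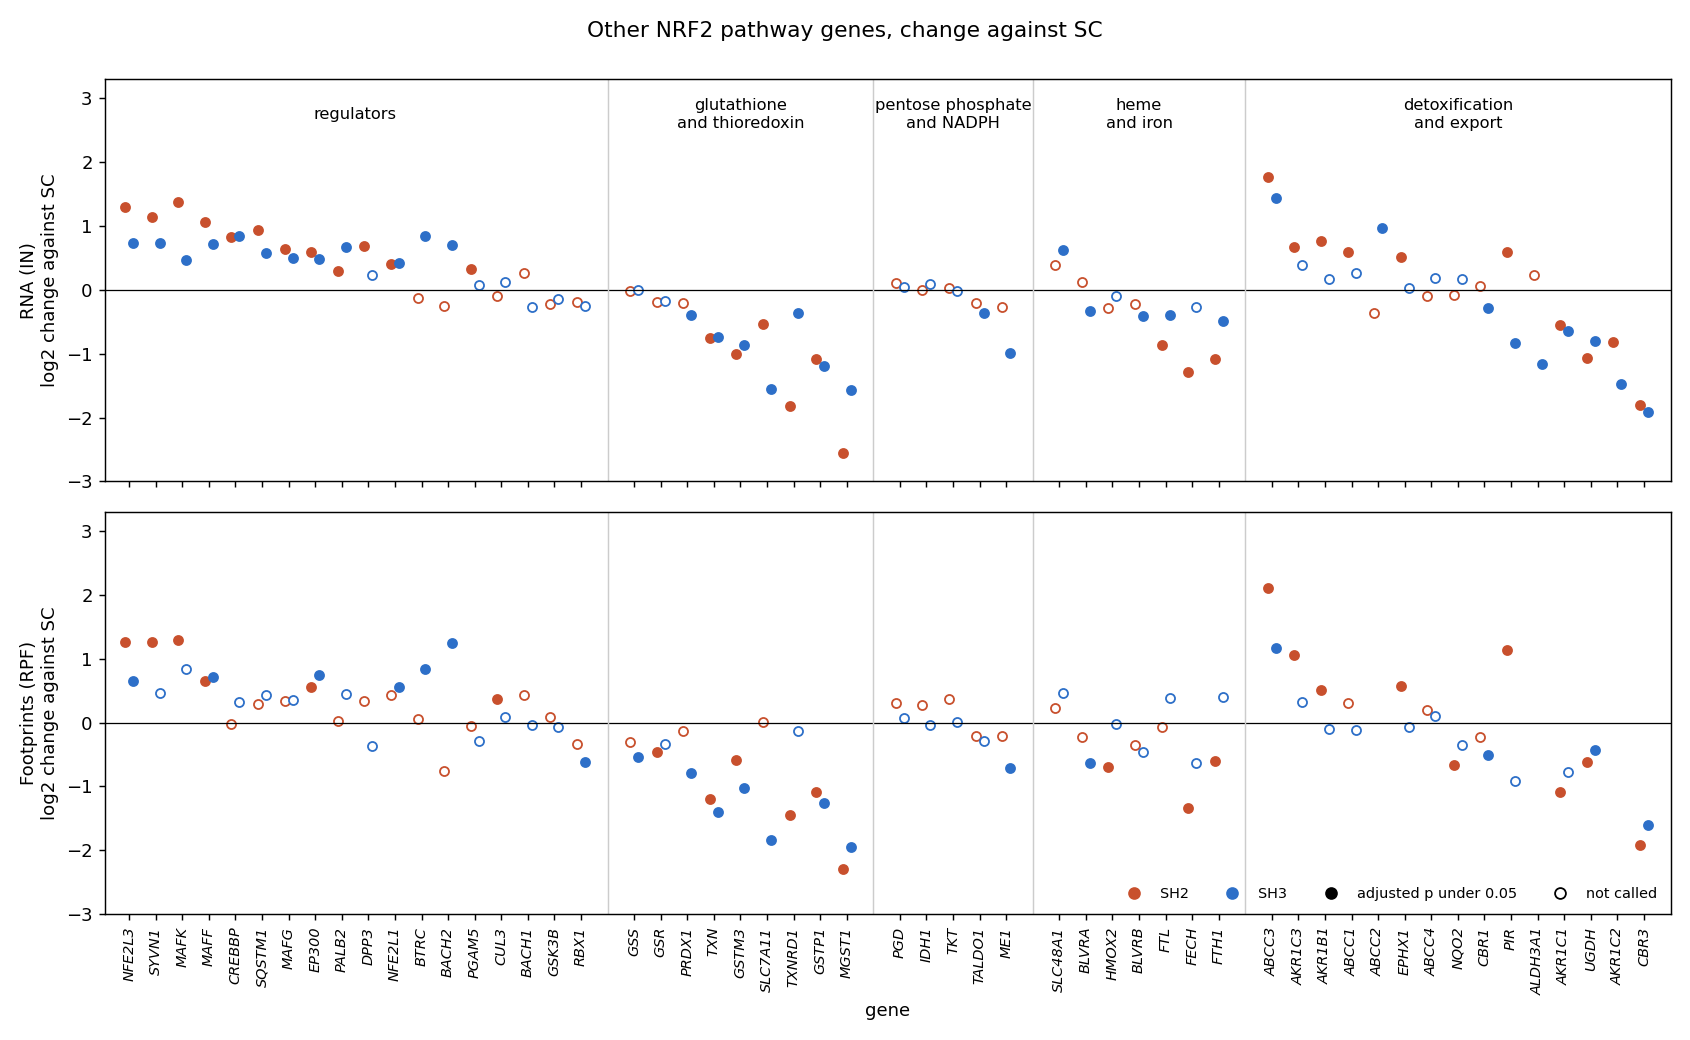
Log2 change against SC of the other NRF2 pathway genes shown, in SH2 and SH3, for RNA and footprints, by list. In RNA 12 of 18 regulators were called higher with each hairpin, beside 31.1% and 27.8% of all genes in SH2 and SH3. Of 9 glutathione and thioredoxin genes 6 and 7 were called lower, beside 30.4% and 25.2% of all genes.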

How the data were processed

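The deposited table holds raw read counts per gene for all 18 libraries, as the authors deposited them, and these were the values used. Its normalized signal columns hold, per the file headers, DESeq2-normalized values. Its log2 fold changes and p-values are the authors' own DESeq2 comparisons, per the file headers, and none of these 3 kinds was used. The deposited columns of the authors' measure RD were identical for SH2 and SH3 in all 17017 genes. The submitters' processing notes name Bowtie 1.2.2 and DESeq2. The counting tool, annotation and genome build are not given in the sources used here, so no coordinates are printed for the counted genes.

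Counts were analysed in edgeR 4.0.16 (R 4.3.3) with filterByExpr (minimum count 10, minimum total 15), TMM factors within each library kind, and the two-sided quasi-likelihood test. RNA was fitted over 9 IN libraries and footprints over 9 RPF libraries. Translational efficiency was an interaction contrast in a fit of all 18. The main fits had no replicate block. Same-numbered SC and SH2 libraries of a kind deviated together across genes (r 0.33 to 0.37 in RNA, 0.24 to 0.29 in footprints), so the numbers pair these groups, a pairing read from the data and not from the labels. With SH3 not every pair did (lowest r -0.11 in each kind). The code was tested on simulated data. Intervals are at 95%, and SE is the absolute log2 change divided by the square root of F. The common biological coefficient of variation was 11.6% in RNA and 15.1% in footprints. Replicates differed beyond counting noise, with a chi-square per degree of freedom of 3.38 to 56.3, so all libraries were kept separate.

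The members and the lists of other pathway genes were chosen with earlier results of these data known. Named from the lists were 10 genes always (CUL3, BACH1, NFE2L1, SQSTM1, TXNRD1, SLC7A11, HMOX2, FTH1, FTL and 1 that is not reported here), the 12 with the largest mean change among those called alike in both hairpins, and any called for translational efficiency. PIR was named after its values were seen. The alternatives were DESeq2 1.42.0, its size factors, plain library totals, no filter, a replicate block, fits of only the groups compared, and leaving out each library of the 9 in turn. In the joint fit of both kinds, the RNA and the footprint library of the same group and number were left out together. For translational efficiency the block paired RNA and footprint libraries by number within each group.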

Additional observations from a re-analysis of the deposited data

Results flagged for a closer look

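Between SH2 and SH3, 39.3% of all genes were called in RNA and 23.8% in footprints, so a difference alone does not set a gene apart. NFE2L2 RNA differed between the hairpins, with SH2 lower than SH3 by a log2 difference of -0.76 (edgeR adjusted p 8.55e-05), lower in 3 of 3 SH2 libraries than in any SH3 library. NFE2L2 footprints differed in the same direction, by -0.54 (edgeR adjusted p 0.0175), without overlap between SH2 and SH3. That footprint call was lost in 3 of 15 alternatives. HMOX1 RNA was lower in SH2 than in SH3 by -0.62 (edgeR adjusted p 0.00839), although neither hairpin was called against SC, and the SH2 and SH3 libraries did not overlap. FBL RNA, the targeted mRNA, was at 1.46% of SC in SH2 and 0.898% in SH3, and its part in these differences was not tested.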

How the results depend on the processing

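Of 72 results for the 8 genes (3 measures in 3 comparisons), 61 kept their side of the threshold in each alternative tested. The other 11 did not, and 0 called values reversed. Alternatives with an adjusted p numbered 15, but 14 for HMOX1, OSGIN1 and SRXN1 translational efficiency in SH3 and between the hairpins. With DESeq2 the SRXN1 RNA difference between SH2 and SH3 was 0.40 and the GCLM footprint change in SH2 -0.45, the first gaining and the second losing its call. With plain library totals SRXN1 (0.39) and HMOX1 in SH3 RNA (0.45) gained a call, and NQO1 (-0.67) and GCLM (-0.45) footprints in SH2 lost theirs. With no filter on low counts the NQO1 footprint difference between SH2 and SH3 (0.47) gained a call. With only the groups compared, SRXN1 lost its call in SH2 (0.38) and gained one between SH2 and SH3 (0.39), and GCLM footprints in SH2 lost theirs (-0.45). The cause of these changes was not tested.

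Leaving out single libraries, SRXN1 RNA ranged from 0.25 to 0.52 in SH2 and from 0.32 to 0.50 between SH2 and SH3, and OSGIN1 RNA in SH3 from 0.073 to 0.42. Footprint changes ranged from -0.87 to -0.42 for NQO1 in SH2, from -0.61 to -0.37 for GCLM in SH2 and from -0.61 to -0.37 in SH3, from -0.58 to -0.30 for GCLC in SH2 and from -0.63 to -0.35 in SH3, and from -0.65 to -0.46 for NFE2L2 between SH2 and SH3. Over all genes, footprint calls between SH2 and SH3 numbered 2459, and 1541 to 2928 without single libraries. Translational efficiency calls numbered 460, 94 and 2 in SH2, SH3 and between them. They were 116 to 549, 11 to 257 and 0 to 56 without single libraries, 848, 320 and 193 with DESeq2, and 181, 51 and 27 with only the groups compared. With no filter the last number was 33.

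Of the other pathway genes, 7 rose in SH3 footprints, 11 with no filter. For translational efficiency 0 of 55 rose and 1 fell with each hairpin, where 3.67% and 0.750% of all genes were called in SH2 and SH3. DESeq2 gave 2 higher and 3 lower in SH2 and 2 and 2 in SH3, size factors 1 higher in SH3, plain totals 2 lower in SH2, and no filter 1 higher with each hairpin. With only the groups compared 0 fell in either. Without the RNA and footprint library of a given replicate, 0 to 1 rose with each hairpin, and 0 to 1 fell in SH2 and 0 to 3 in SH3.

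Same-numbered libraries deviated together between SC and SH2 but not in every pair with SH3. RNA and footprint replicates 1 and 2 did not match by number in SC and SH2. With the replicate number as a block over all groups, separately in RNA and in footprints, GCLC footprints were called in SH2 (-0.45) and SH3 (-0.52). SRXN1 RNA was called between SH2 and SH3 (0.38), and 12 other pathway genes rose in SH3 footprints. For translational efficiency the block instead paired RNA and footprint libraries by number within each group, including the unmatched numbers 1 and 2. Calls under that pairing numbered 186, 17 and 0, with 0 other pathway genes lower in SH2 or SH3. Because of the mismatch, no conclusion is drawn from them. Neither block changed any other call of the 8 genes. Footprint counts of 9 to 43 for HMOX1 and OSGIN1 limit what could be seen there. KEAP1 was not called in any alternative.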

Other observations

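Beyond the pathway, the genes whose RNA pattern was most like that of each member were found by Pearson's r of log2 CPM over the 9 IN libraries, among 12710 genes. These values describe 3 groups of 3 libraries that share depth and SC controls, and the highest of so many coefficients is high by construction. Nearest to NFE2L2 were DMXL1 (r 0.997) and CLASP2 (r 0.995), which also lay lower in SH2, with log2 changes of -1.04 and -0.75. Nearest to NQO1 were ACOX2 (r 0.984), a peroxisomal oxidase, and KCTD12 (r 0.972). Near to GCLM was the 40S ribosomal protein gene RPS7 (r 0.977), with changes of -0.40 in SH2 and -0.44 in SH3.

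Nearest to KEAP1 were C2CD4C (r 0.953) and NUBP2 (r 0.943), to HMOX1 C19orf12 (r 0.973) and MTARC2 (r 0.929), and to GCLC TMX2 (r 0.965) and NDNF (r 0.961). Nearest to SRXN1 were DOC2A (r 0.975) and TMEM254 (r 0.966), and near to OSGIN1 was FXR2 (r 0.957). No member was among the 2 nearest of another. Among the members themselves, NQO1 and GCLM were the pair with the highest r (0.87, 9 libraries), and NFE2L2 and SRXN1 the pair with the lowest (-0.81).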
